A study of Mus musculus with 8 samples.

Results

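The 10 genes described here, Sox2, Sox9, Pax6, Hopx, Nes, Vim, Fabp7, Slc1a3, Tnc and Ptprz1, are markers of radial glia and neural stem cells. They were picked by symbol as known markers from the 16397 genes of the count table, by a rule that uses no measured value, and all 10 passed the count filter that left 13707 protein-coding genes for testing. RNA was sequenced from 4 hippocampi with intrauterine growth restriction (IUGR; samples T1-1, T1-3, T1-4 and T1-5) and 4 sham hippocampi (S1-4, S1-6, S3-1 and S3-4). All were collected at embryonic day 15.5 (E15.5) on a C57Bl/6J background. Dams of IUGR offspring carried a micro-osmotic pump that released U-46619, an analog of thromboxane A2 that raises maternal blood pressure, from E12.5. Sham dams carried a pump with vehicle from the same day, so both groups underwent surgery. The labels do not say whether samples of a group came from separate dams, nor the sex of a sample, so p values measure only the spread between these samples. All IUGR samples carry the prefix T1 and the sham samples S1 or S3, and the sources used here do not say what the prefix stands for.

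Radial glia are the stem cells of the embryonic brain. Their cell bodies line the ventricle, a long process reaches the pial surface, and their divisions give rise to intermediate progenitors, neurons and later astrocytes. In the hippocampus they occupy the ventricular zone next to the cortical hem, and some of their descendants move through the dentate migratory stream to found the adult stem cell niche of the dentate gyrus (DG). The study counted Sox2+ neural stem cells in sections of the DG, and the question for the RNA was whether the genes that mark these cells differed between IUGR and sham hippocampi. In RNA from whole hippocampi, fewer cells of a type and less RNA per cell cannot be told apart.

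Promoters of 4 of the genes are shown because the results turn on them: Tnc is the gene whose groups separated, Sox2 marks the cells that were counted, and Fabp7 and Vim had the highest levels per length. Each runs 5′ to 3′ on the strand of its gene, from 250 bases before to 50 bases after the RefSeq start on GRCm38.p6, and capitals mark 3 short motifs searched on both strands. These are ACAANG for SOX factors, TGGGAA for RBPJ, the DNA-binding partner of Notch, and TTGGCA for NFI factors, which drive glial genes.
Tnc, chr4:64046887-64047186, minus strand: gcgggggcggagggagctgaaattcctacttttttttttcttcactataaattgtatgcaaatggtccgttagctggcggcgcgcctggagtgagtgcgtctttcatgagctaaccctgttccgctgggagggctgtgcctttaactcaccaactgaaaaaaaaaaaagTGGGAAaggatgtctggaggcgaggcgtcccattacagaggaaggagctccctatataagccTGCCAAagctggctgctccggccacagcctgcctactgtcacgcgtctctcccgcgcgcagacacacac
Sox2, chr3:34649745-34650044, plus strand: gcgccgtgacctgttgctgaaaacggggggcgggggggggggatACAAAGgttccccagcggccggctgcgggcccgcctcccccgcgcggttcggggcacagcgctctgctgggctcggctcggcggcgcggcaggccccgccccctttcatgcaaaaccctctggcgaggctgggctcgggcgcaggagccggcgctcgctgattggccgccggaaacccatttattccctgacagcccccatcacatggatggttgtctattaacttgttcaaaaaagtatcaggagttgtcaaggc
Fabp7, chr10:57784673-57784972, plus strand: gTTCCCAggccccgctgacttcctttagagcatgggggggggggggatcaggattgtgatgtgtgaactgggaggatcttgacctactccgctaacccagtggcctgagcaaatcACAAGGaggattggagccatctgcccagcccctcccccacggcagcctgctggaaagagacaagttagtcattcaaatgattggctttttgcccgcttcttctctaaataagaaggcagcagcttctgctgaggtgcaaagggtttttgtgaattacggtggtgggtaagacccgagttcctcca
Vim, chr2:13574061-13574360, plus strand: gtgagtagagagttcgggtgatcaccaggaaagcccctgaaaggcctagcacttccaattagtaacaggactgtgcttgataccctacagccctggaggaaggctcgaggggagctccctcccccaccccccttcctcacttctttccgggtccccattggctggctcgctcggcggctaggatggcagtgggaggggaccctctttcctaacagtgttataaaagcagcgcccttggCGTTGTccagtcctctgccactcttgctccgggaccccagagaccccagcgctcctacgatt

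The Tnc window holds an RBPJ motif at position −81 from the start and an NFI motif at −19. Fabp7 holds a SOX motif at −135 and an RBPJ motif at −249, Sox2 a SOX motif at −206 and Vim a SOX motif at −12. RefSeq listed 12 promoters for 9 of the 10 genes, and a SOX motif occurred in 6 of the 12, an RBPJ motif in 3 and an NFI motif in 1. Among all 32851 mouse promoters of this length, 41.2% held a SOX motif, 25.6% an RBPJ motif and 14.1% an NFI motif, and among the 13264 promoters of tested genes 33.2%, 23.0% and 11.2% did. Both Tnc entries overlap each other and share the RBPJ match at −81 of the first. In the second entry, which is not shown and starts at the GENCODE gene bound, that match lies at −2. A match is a run of letters and not a measured binding site. The RefSeq starts of all windows shown differ from the GENCODE gene bounds given with the values of the genes.

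Total counts on genes ran from 12919546 to 16672463 for IUGR and from 11212632 to 15405748 for sham libraries, so the depths of the groups overlapped, and the run labels place all 8 libraries on the same flow cell lane. Hippocampal markers were present in all 8 samples, with Emx2 at 14.6 to 93.0 CPM, Lhx2 at 118 to 396 CPM and Prox1 at 24.0 to 59.2 CPM (CPM, counts per 1000000 counts with TMM-adjusted library sizes). Each of these markers had a lower estimate under IUGR, although its groups overlapped. The log2 fold change was −0.74 for Emx2, −0.40 for Lhx2 and −0.56 for Prox1. Their adjusted p values were 0.695, 0.915 and 0.368 by edgeR's quasi-likelihood test. Whether the dissections matched between groups was not tested. A gene counted as called when edgeR's quasi-likelihood test gave both an adjusted p no higher than 0.05 and an absolute log2 fold change (log2FC) no smaller than 1. Libraries T1-1 and T1-4 stood apart through choroid plexus markers, and T1-3 through meningeal fibroblast markers. The mean log2 CPM of 14 choroid plexus markers was 0.76 in T1-1 and 0.11 in T1-4, against 3.60 and 3.66 in T1-3 and T1-5 and 5.34 to 5.79 in sham hippocampi. All 14 were lower in IUGR, with 3 called by edgeR (Folr1, Cldn2 and Otx2), 5 by DESeq2's Wald test and 10 by limma-voom (200, 425 and 328 of the 13707 tested genes, 1.46% by edgeR), and their summed level was 75.2 to 392 CPM across IUGR libraries, against 1050.0 to 1474 CPM across shams. The 14 markers of the cortical hem, the signalling center beside the hippocampal ventricular zone, were likewise all lower, and edgeR called 8 (Lmx1a, Wnt3a, Rspo2, Dkk1, Wnt2b, Rspo1, Wnt8b and Rspo3), DESeq2 9 and limma-voom 8. Their summed level was 83.1 to 276 CPM across IUGR libraries, against 318 to 536 CPM across shams. Summed meningeal fibroblast markers spanned 90.5 to 2949 CPM in IUGR, with T1-4 lowest and T1-3 highest, and 311 to 606 CPM in sham libraries, and no marker of these 3 lists was at 0 in any sample. Sham libraries also differed from each other. S1-4 had the lowest mean log2 CPM of all 8 samples for markers of intermediate progenitors (5.11) and neurons (6.79). In the other shams these means were 5.62 to 6.15 and 7.15 to 7.29. For markers of subpallial cells the sham means ran from 4.51 in S3-1 to 6.07 in S1-6, with 5.98 in S1-4. IUGR means of that list ran from 5.09 to 6.35. The part of these other tissues and cells in the results below was not tested.

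None of the 10 radial glia genes was called between IUGR and sham hippocampi by edgeR's quasi-likelihood test, nor by DESeq2's Wald test or limma-voom with the same thresholds. Across all tested genes 1.46% were called, and 1.36% were called lower in IUGR. Of the 10 genes, 7 had a lower and 3 a higher fitted level in IUGR, beside 55.5% of all tested genes on the lower side. Only Tnc had an unadjusted p under 0.05, which 11.1% of tested genes had, and only in Tnc did the 4 IUGR values lie apart from the 4 sham values, as they did in 7.14% of tested genes and, with IUGR lower, in 5.06%. The median log2FC of the 10 genes was −0.11, and that of all tested genes was −0.02.

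The 10 genes were also fitted without T1-1 and T1-4, the IUGR libraries with the lowest choroid plexus markers. T1-3 and T1-5, which remained, were also below every sham in choroid plexus and cortical hem markers. None was called, and the lowest adjusted p values were 0.152 for Tnc and 0.391 for Sox2 (edgeR's quasi-likelihood test). The log2FC was −0.59 for Sox2, −0.31 for Sox9, 0.057 for Pax6 and 0.15 for Hopx among the nuclear regulators. It was −0.28 for Nes, −0.35 for Vim, 0.34 for Fabp7, 0.26 for Slc1a3, −0.74 for Tnc and −0.17 for Ptprz1. The median of the 10 was then −0.23, and that of all tested genes −0.036.

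These data bound the size of most differences. The 95% interval of the log2FC stayed within 1 in either direction for 9 of the 10 genes, the exception being Tnc, and for 76.8% of all tested genes. The median standard error (SE) was 0.20 for the 10 genes and 0.19 for all tested genes.

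**Figure D1:**
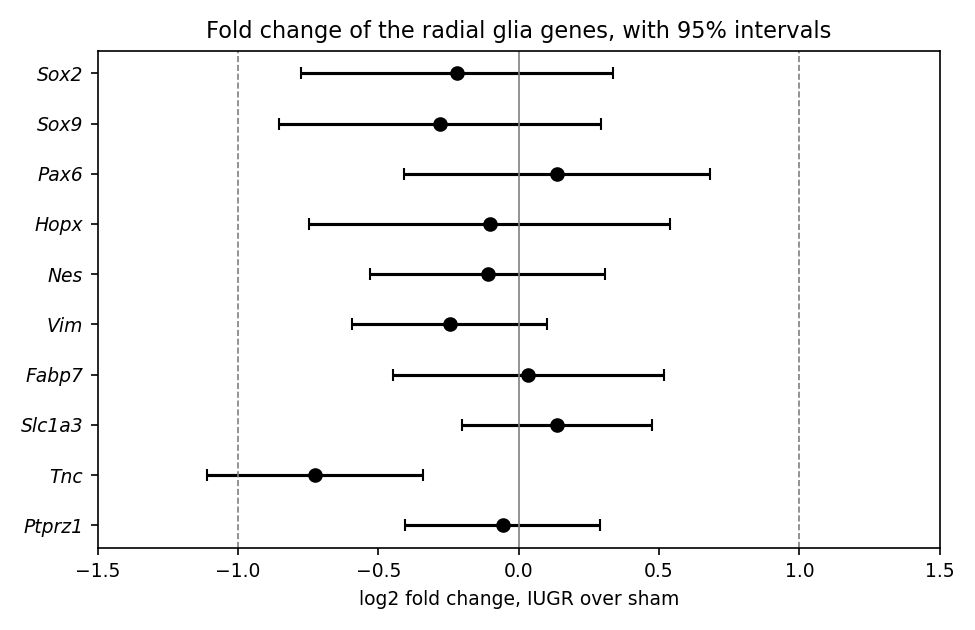
Log2 fold change (log2FC, IUGR over sham) of each radial glia gene on the horizontal axis, with points for the edgeR estimate and bars for the 95% interval; dashed lines mark 1 in either direction. The intervals include 0 for every gene except Tnc, whose interval runs from −1.11 to −0.34.

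Sox2 (chromosome 3, 34650405 to 34652461, a gene of 1 exon) encodes the transcription factor that keeps neural stem cells undifferentiated. Its level was 336, 149, 273 and 235 CPM in T1-1, T1-3, T1-4 and T1-5, and 407, 255, 260 and 236 CPM in S1-4, S1-6, S3-1 and S3-4. The groups overlapped, and S1-4 stood above all other samples while T1-3 stood below them. Mean Sox2 was 248 ± 78.1 CPM in IUGR, against 289 ± 79.1 CPM in shams (n = 4 each, SD), a log2FC of −0.22 (SE 0.25, 95% interval −0.77 to 0.33). The difference was smaller than the spread between samples (adjusted p = 1.00, edgeR's quasi-likelihood test; p = 0.486, exact two-sided permutation test). The estimate changed with the samples that entered, at 0.015 without S1-4, −0.0036 without T1-3 and −0.36 without T1-1. Without T1-1 and T1-4 it was −0.59 (unadjusted p = 0.0609, adjusted p = 0.391, edgeR). Sox2 lies within the long transcript Sox2ot on the same strand, and no exon bases are shared.

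Sox9 (chromosome 11, 112782224 to 112787760) acts in the induction and upkeep of neural stem cells and later in the switch to glia. In IUGR hippocampi it lay within a narrow range of 61.4, 64.4, 59.7 and 52.3 CPM, in the sample order given for Sox2. Sham values were 51.8, 110, 44.0 and 82.8 CPM, and they enclosed all 4 IUGR values. The coefficient of variation was 8.61% in IUGR and 42.0% in sham libraries, a difference in spread that was not tested. The means of 59.4 ± 5.12 and 72.2 ± 30.3 CPM (n = 4 each, SD) gave a log2FC of −0.28 (SE 0.26, 95% interval −0.85 to 0.29, adjusted p = 0.959, same edgeR test). Leaving out S1-6, the highest sample, moved this to 0.026.

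Pax6 (chromosome 2, 105668900 to 105697364) patterns the dorsal forebrain and promotes the neurogenic divisions of radial glia. Its levels were 138, 104, 74.4 and 86.3 CPM in IUGR, against 58.0, 86.3, 97.7 and 124 CPM in shams. The highest value belonged to T1-1 and the lowest to S1-4, with the other samples interleaved. Mean Pax6 was 101 ± 27.5 CPM in IUGR, against 91.5 ± 27.3 CPM in shams (n = 4 each, SD; log2FC 0.14, SE 0.25, 95% interval −0.41 to 0.68, edgeR). This did not exceed the spread between samples (p = 0.629, exact two-sided permutation test), and the estimate was −0.023 without T1-1 and −0.010 without S1-4.

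Hopx (chromosome 5, 77086988 to 77115121) encodes a small homeodomain protein without DNA binding of its own, which marks outer radial glia in larger brains and stem cells of the dentate lineage in the mouse. It was the lowest of the 10 genes in CPM, at 25.7, 31.9, 20.6 and 37.1 CPM in IUGR, against 18.2, 28.0, 28.1 and 49.5 CPM in shams. Sham samples held both its lowest (S1-4) and its highest value (S3-4). The log2FC was −0.10 (SE 0.29, 95% interval −0.75 to 0.54) between means of 28.8 ± 7.18 and 30.9 ± 13.2 CPM (n = 4 each, SD), the widest interval of the 10. It was 0.22 without S3-4, 0.026 without T1-4 and 0.15 without T1-1 and T1-4. Exons of Hopx share 412 bases with Hopxos on the other strand, which had 2 to 10 counts per sample.

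**Figure D2:**
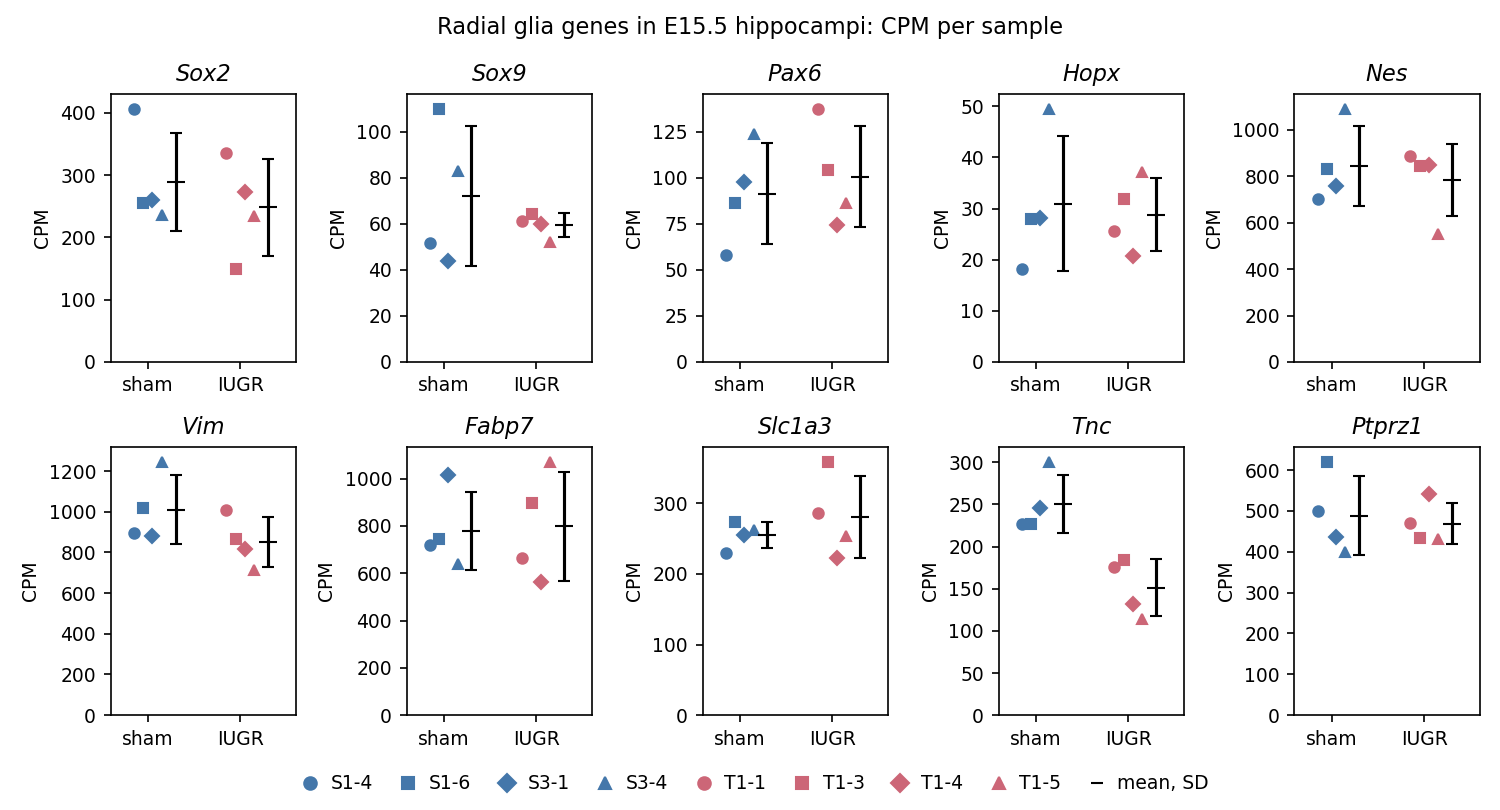
Level of the 10 radial glia genes in each sample, in CPM on a linear axis from 0, with one marker shape per sample, sham in blue and IUGR in red; the bars show the mean and SD (n = 4). Sham and IUGR values overlap in 9 panels and lie apart in that of Tnc, where IUGR values are 114 to 184 CPM and sham values 227 to 300.5 CPM.

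Nes and Vim encode the intermediate filaments nestin and vimentin that fill the radial process. Nes (chromosome 3, 87971078 to 87980451) was at 890, 845, 847 and 552 CPM in IUGR, against 703, 832, 757 and 1092 CPM in shams. Apart from T1-5, the lowest, and S3-4, the highest, the samples lay close together. Mean Nes was 783 ± 155 CPM in IUGR, against 846 ± 172 CPM in shams (n = 4 each, SD), with a log2FC of −0.11 (SE 0.19, 95% interval −0.53 to 0.31, edgeR). Its sign turned without T1-5 (0.025) and without S3-4 (0.036).

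Vim (chromosome 2, 13573927 to 13582826) was the most abundant of the 10 genes by mean CPM. It stood at 1011, 867, 816 and 716 CPM in IUGR, against 896, 1020, 882 and 1245 CPM in shams. As for Nes, T1-5 was lowest and S3-4 highest, and 3 of the 4 IUGR values lay below every sham value. Mean Vim was 852 ± 123 CPM in IUGR, against 1011 ± 168 CPM in shams (n = 4 each, SD; log2FC −0.25, SE 0.16, 95% interval −0.59 to 0.10). The difference did not pass the test (adjusted p = 0.748, edgeR's quasi-likelihood test; p = 0.143, exact two-sided permutation test). Its estimate kept its sign in all 19 alternative fits, between −0.35 and −0.13.

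Fabp7 and Slc1a3 serve metabolism and transport in radial glia, Fabp7 as a fatty acid binding protein of the brain and Slc1a3 as the glutamate transporter GLAST. Fabp7 (chromosome 10, 57784881 to 57788450) was at 663, 895, 562 and 1070 CPM in IUGR, against 717, 743, 1015 and 639 CPM in shams. IUGR held both extremes, T1-4 and T1-5, and the means of 798 ± 229 and 779 ± 164 CPM (n = 4 each, SD) nearly coincided. The log2FC was 0.03 (SE 0.22, 95% interval −0.45 to 0.52, edgeR), and it was −0.14 without T1-5 and −0.049 without S3-4.

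Slc1a3 (chromosome 15, 8634124 to 8710764) was at 287, 359, 223 and 253 CPM in IUGR, against 230, 273, 256 and 262 CPM in shams. Sham values formed a tight group between the lowest and highest IUGR samples, T1-4 and T1-3. Mean Slc1a3 was 281 ± 58.2 CPM in IUGR, against 255 ± 18.4 CPM in shams (n = 4 each, SD; log2FC 0.14, SE 0.15, 95% interval −0.20 to 0.48). The difference was within the spread between samples (p = 0.543, exact two-sided permutation test), and the estimate was 0.026 without T1-3 and 0.23 without T1-4.

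Tnc (chromosome 4, 63959785 to 64047015) encodes tenascin C, a large glycoprotein that radial glia secrete into the extracellular matrix of the stem cell niche. It was at 175, 184, 132 and 114 CPM in T1-1, T1-3, T1-4 and T1-5, and at 227, 227, 246 and 300.5 CPM in S1-4, S1-6, S3-1 and S3-4. The highest IUGR sample was still below the lowest sham sample. Mean Tnc was 151 ± 33.7 CPM in IUGR, against 250.2 ± 34.6 CPM in shams (n = 4 each, SD), 0.605 of the sham level on the fitted scale. The log2FC was −0.73 (SE 0.17, 95% interval −1.11 to −0.34).

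Tnc was not called, since its adjusted p was 0.0739 by edgeR's quasi-likelihood test (unadjusted p = 0.00175, rank 325 of all tested genes) and its fold change was under the threshold. The exact two-sided permutation test over the 8 samples gave p = 0.0286, the smallest that 4 against 4 samples allow. Every gene whose groups lie apart gets this p, as 7.14% of tested genes did, so it restates the separation. DESeq2's Wald test gave an adjusted p of 0.00932 and limma-voom 0.0547, with log2FC values of −0.70 and −0.74. In the 19 alternative fits the log2FC of Tnc lay between −0.83 and −0.59 and the adjusted p between 0.00932 and 0.480. Without T1-1 and T1-4, the libraries with the lowest choroid plexus markers, it was −0.74 (adjusted p = 0.152, edgeR). The noncoding gene 8030451A03Rik shares 176 exon bases with Tnc on the other strand and had 0 to 15 counts per sample, against a mean of 2604 counts for Tnc.

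Ptprz1 (chromosome 6, 22875502 to 23052916) encodes a receptor phosphatase of radial glia that binds tenascins, contactin 1 and pleiotrophin. It was at 470, 434, 542 and 431 CPM in IUGR, against 499, 620, 436 and 398 CPM in shams. The groups were interleaved, and both extremes belonged to sham samples. Mean Ptprz1 was 469 ± 51.2 CPM in IUGR, against 488 ± 97.1 CPM in shams (n = 4 each, SD; log2FC −0.06, SE 0.16, 95% interval −0.40 to 0.29). The estimate was 0.013 without T1-3 and 0.12 without S1-6.

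The 19 other genes of outer radial glia and of the matrix around Tnc and Ptprz1 were examined next. None was called by edgeR, 9 were lower and 10 higher in IUGR, 4 had an unadjusted p under 0.05 (11.1% of all tested genes did), and their median log2FC was 0.05. Cntn1, which encodes the contactin that binds Ptprz1, was the one gene of the 19 with IUGR values below all sham values, which 5.06% of tested genes showed. Cntn1 was at 36.3, 84.6, 37.2 and 86.0 CPM in IUGR, against 182, 129, 165 and 145 CPM in shams, with the lowest values in T1-1 and T1-4. Its log2FC was −1.34 (SE 0.30, adjusted p = 0.0559, edgeR's quasi-likelihood test), and −0.86 without T1-1 and T1-4 (adjusted p = 0.0555). It was called by DESeq2's Wald test, by limma-voom, without a count filter and without T1-3 or T1-5.

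Vcan, the gene of the matrix proteoglycan versican, was the one gene of these 19 with IUGR values above all sham values, as in 2.08% of tested genes, and was named after its values were seen. It was at 792 ± 110 CPM in IUGR, against 584 ± 73.1 CPM in shams (n = 4 each, SD; log2FC 0.44, adjusted p = 0.217, edgeR). Itgb5 and Pdgfd, an integrin subunit and a growth factor of outer radial glia, were at −0.79 (adjusted p = 0.225) and −0.96 (adjusted p = 0.529). These and Cntn1 had the largest estimates of the genes whose mean count reached 50, and Moxd1, with a mean of 46.9 counts, was at −1.41 (adjusted p = 0.237, edgeR). The log2FC values of Ptn and Mdk, which encode the secreted Ptprz1 ligands pleiotrophin and midkine, were 0.05 and −0.23.

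Levels of the 10 genes were compared with each other per length, as CPM per kilobase of exon. Fabp7 led at 623 ± 131 in sham and 638 ± 183 in IUGR hippocampi (n = 4 each, SD), and Vim followed at 213 ± 35.4 and 180 ± 25.9. Sox2 was at 141 ± 38.4 and 121 ± 38.0, and Nes at 132 ± 26.8 and 122 ± 24.2. In sham hippocampi the range of Vim overlapped that of Sox2, and the range of Sox2 that of Nes. Ranges leave out that the genes were measured in the same samples, and no paired comparison was made.

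Then came Ptprz1 at 34.3 ± 6.82 in sham and 32.9 ± 3.60 in IUGR hippocampi, Tnc at 32.2 ± 4.45 and 19.5 ± 4.33, and Slc1a3 at 29.9 ± 2.15 and 32.9 ± 6.82 CPM per kilobase. Hopx (20.4 ± 8.73 and 19.0 ± 4.74), Sox9 (17.5 ± 7.33 and 14.4 ± 1.24) and Pax6 (7.82 ± 2.34 and 8.60 ± 2.35) were lowest. Neighbouring ranges lay apart in sham hippocampi between Fabp7 and Vim, Nes and Ptprz1, and Sox9 and Pax6. The order in IUGR hippocampi was Fabp7, Vim, Nes, Sox2, Ptprz1, Slc1a3, Tnc, Hopx, Sox9 and Pax6. There 5 of the 9 neighbouring ranges lay apart, those of Fabp7 and Vim, Vim and Nes, Sox2 and Ptprz1, Slc1a3 and Tnc, and Sox9 and Pax6, and the ranges of the other neighbours overlapped. Exon length was the union of all annotated exons, so a gene whose long isoforms are little used is understated on this scale.

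**Figure D3:**
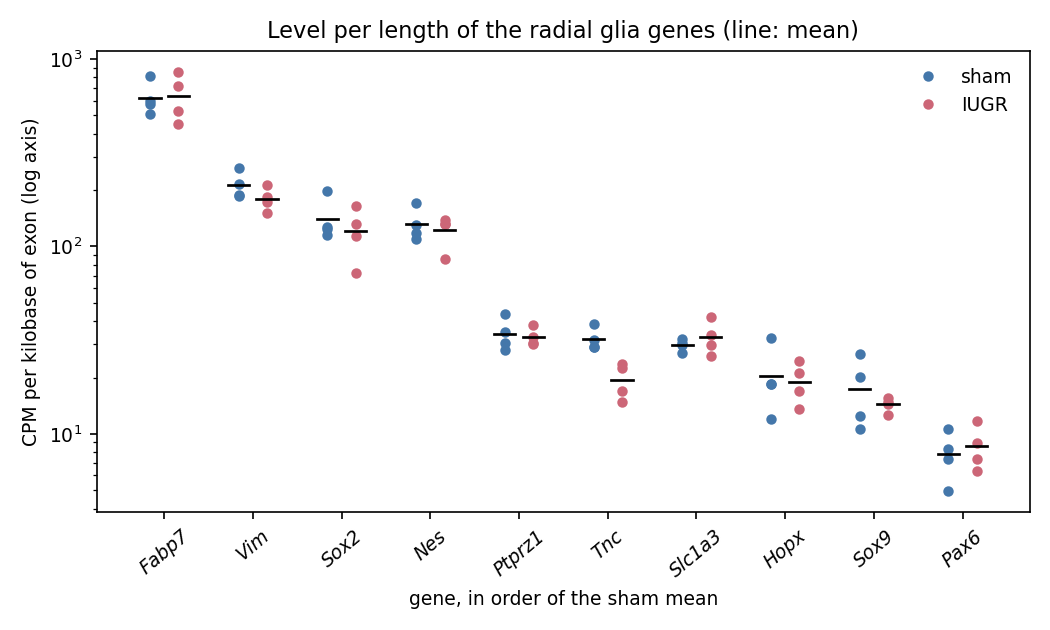
CPM per kilobase of exon for each radial glia gene on a log axis, with points for samples (sham blue, IUGR red) and lines for group means (n = 4). The sham means run from 623 for Fabp7 to 7.82 for Pax6, and the Tnc points of the groups are the only ones that do not overlap.

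Pairs of the 10 genes were then compared across the 8 samples. Of the 45 pairs, 28 had a positive Pearson correlation of log2 CPM, and none passed the permutation test after adjustment over the 45 pairs (lowest adjusted p = 0.309). The closest pair was that of the filament genes, Nes and Vim, with r = 0.85 (p = 0.0137 by exact permutation, adjusted p = 0.309) and Spearman's rho of 0.52 (p = 0.197 by exact permutation, adjusted p = 0.681). It rested on T1-5 and S3-4, since r was 0.26 without them. Vim and Tnc had r = 0.81 (p = 0.0134 by exact permutation, adjusted p = 0.309) and rho = 0.71 (p = 0.0576, adjusted p = 0.518, by exact permutation), with r = 0.41 without the same samples.

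The mean log2 CPM of the 10 genes was 7.98, 7.90, 7.71 and 7.75 in T1-1, T1-3, T1-4 and T1-5, and 7.78, 8.05, 7.90 and 8.14 in S1-4, S1-6, S3-1 and S3-4. The groups overlapped, at 7.83 ± 0.13 in IUGR and 7.97 ± 0.16 in sham hippocampi (n = 4 each, SD). S3-4 held the highest value of 4 of the 10 genes and T1-5 the lowest value of 3. Outside the 10, the genes whose log2 CPM was most like that of Sox2 among the 11897 genes whose mean count reached 50 were Slain1 (r = 0.98), Fancm (0.97), Fam83d (0.97), Pknox1 (0.96) and Rbbp5 (0.96). Most like the mean of the 10 genes were Bri3bp (r = 0.96), Tprn (0.95), Tbc1d4 (0.95), Cachd1 (0.95) and Olfml2b (0.95). These r are the largest among many genes over 8 samples and are given as a description.

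Among 30 further radial glia and early astroglial genes, 24 had a lower and 6 a higher estimate under IUGR (55.5% of all tested genes were lower), and the median log2FC was −0.21. By edgeR 1 was called and 7 had an unadjusted p under 0.05, one of them, Slc1a2, on the higher side, and DESeq2's Wald test and limma-voom each called 2 (Veph1 and Fgfr3). In 4 genes, Veph1, Pdpn, Fgfr3 and Ednrb, all IUGR values lay below all sham values. Over all tested genes edgeR called 1.46%, 11.1% had an unadjusted p under 0.05 and 5.06% lay apart in that direction. No gene of Notch signaling in the list passed the test. The log2FC was −0.24 for Notch1, −0.21 for Hes1 and 0.18 for Hes5, the receptor and its targets, and 0.06 for Sox1, a close relative of Sox2 (each adjusted p was 1.00 by edgeR, and these genes are named for their roles).

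Veph1, which encodes a pleckstrin homology protein of the ventricular zone, was the called gene. It was at 13.5, 7.99, 13.6 and 9.05 CPM in IUGR, against 28.7, 26.9, 23.3 and 18.7 CPM in shams. Its mean fell from 24.4 ± 4.41 to 11.0 ± 2.92 CPM (n = 4 each, SD), a log2FC of −1.15 (SE 0.23, adjusted p = 0.0354, edgeR's quasi-likelihood test). The call was lost in each of the 8 fits that left out 1 sample, with adjusted p values of 0.0518 to 0.133, with the S1 or S3 shams alone, and when only genes whose mean count reached 50 were tested (adjusted p = 0.0618). It was kept without T1-1 and T1-4 (−1.52, adjusted p = 0.0274).

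Pdpn encodes podoplanin, a membrane glycoprotein of neural progenitors that choroid plexus and meninges also express. It was at 70.3, 64.2, 72.9 and 68.4 CPM in IUGR, against 125, 117, 100.3 and 120 CPM in shams, a wide gap between 2 tight groups. Its adjusted p of 0.0171 passed the threshold (edgeR's quasi-likelihood test), but its log2FC of −0.75 (SE 0.12) did not reach the size needed for a call. With 1 sample left out in turn the adjusted p lay between 0.0246 and 0.0892.

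Fgfr3, a fibroblast growth factor receptor of cortical progenitors, was at 66.8, 22.4, 69.4 and 40.3 CPM in IUGR, against 99.7, 101, 166 and 178 CPM in shams. The log2FC of −1.45 (SE 0.34) did not pass the test (adjusted p = 0.0710, edgeR). Here T1-3 and T1-5 were lowest, and without T1-1 and T1-4 Fgfr3 was called at −2.12 (adjusted p = 0.0288), as it was in all 8 samples by DESeq2's Wald test and limma-voom. Ednrb, an endothelin receptor of radial glia and astrocytes that was named for its separation after its values were seen, had means of 142 ± 15.5 and 222 ± 46.4 CPM (n = 4 each, SD; log2FC −0.64, adjusted p = 0.0891, edgeR). Summed levels of choroid plexus and cortical hem markers were lower in the same IUGR libraries, as given above. The part of these tissues in the lower Veph1, Pdpn, Fgfr3, Ednrb, Cntn1 and Tnc was not tested.

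**Figure D4:**
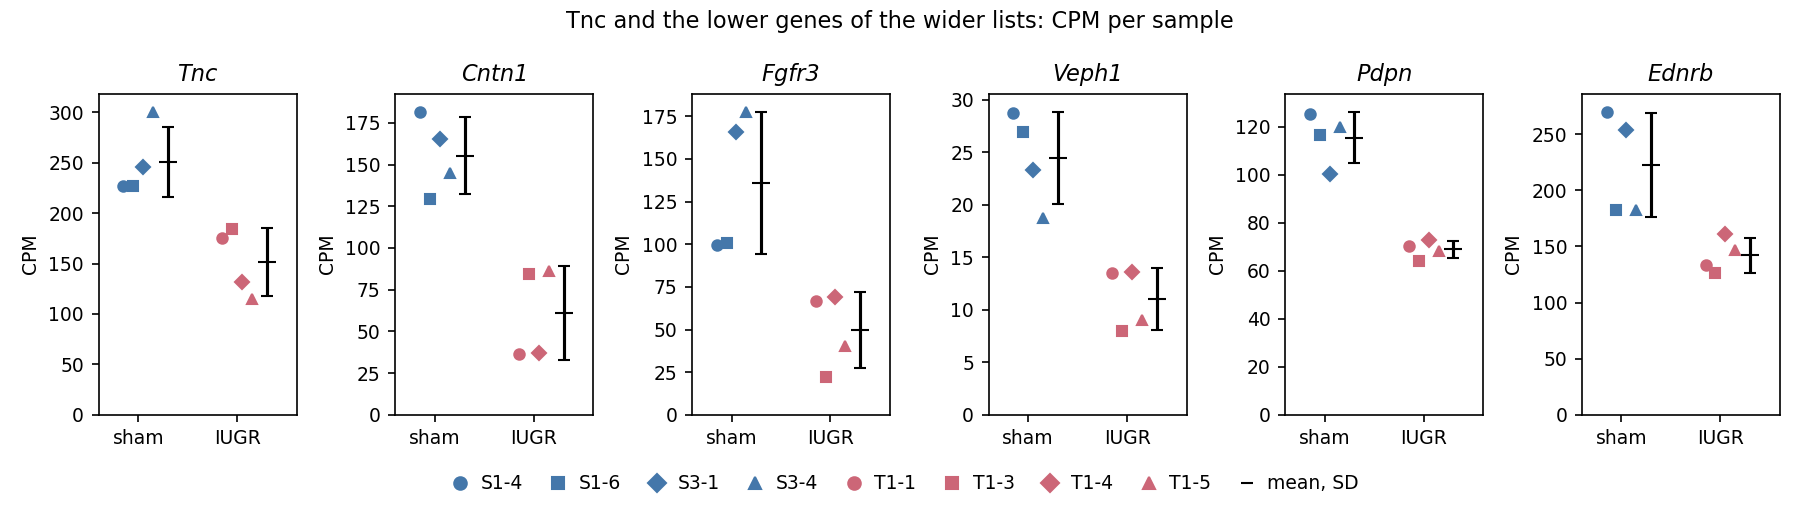
CPM per sample, on linear axes from 0, of Tnc and of 5 genes of the wider radial glia and matrix lists whose IUGR values (red) lie below all sham values (blue); the bars show the mean and SD (n = 4). Veph1 is the only gene of the 6 called by edgeR, while DESeq2 and limma-voom also call Fgfr3 and Cntn1, and T1-1 and T1-4 are the lowest IUGR samples for Cntn1 but the highest for Fgfr3.

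Among 21 tested relatives of the 10 genes in their families, none was called by edgeR, with 8 lower, 13 higher, 5 at an unadjusted p under 0.05 and a median log2FC of 0.15, beside 1.46% called and 11.1% at such a p over all tested genes. The filament genes of neurons had higher estimates than Nes and Vim. Nefl, the light neurofilament, had a log2FC of 1.24 (adjusted p = 0.218) and Ina, the internexin of young neurons, 0.71 (adjusted p = 0.394). DESeq2's Wald test called Nefl, and limma-voom called no gene of these families. Slc1a2, the second glial glutamate transporter beside Slc1a3, was at 0.70 (adjusted p = 0.384), all by edgeR's quasi-likelihood test. Gfap, the filament of mature astrocytes, was near the limit of detection, at 0.493 ± 0.321 CPM in IUGR and 1.33 ± 0.625 CPM in shams (n = 4 each, SD).

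Radial glia are dividing cells, and 24 genes of the cell cycle were examined beside them. None was called by edgeR, DESeq2 or limma-voom, 0 had an unadjusted p under 0.05 with edgeR, none lay apart, 21 were lower and 3 higher, and the median log2FC was −0.11. The shares over all tested genes were 1.46% called by edgeR, 11.1% with such a p, 7.14% apart and 55.5% lower. Cdk1, Tyms and Plk1, which serve entry into mitosis, DNA synthesis and spindle assembly, had log2FC values of −0.25 (adjusted p = 0.824), −0.23 (adjusted p = 0.890) and −0.20 (adjusted p = 1.00, all by edgeR). One library stood below the rest, as the list averaged 6.95 on the log2 CPM scale in T1-3 and 7.52 to 7.87 in the other IUGR samples, against 7.54 to 7.73 in shams. T1-3 was also the library with the lowest Sox2 and the highest meningeal markers, whose part was not tested.

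Of 12 markers of intermediate progenitors, the daughters of radial glia, none was called by edgeR, DESeq2 or limma-voom and 2 had an unadjusted p under 0.05 with edgeR. Of the 12, 8 were lower and 4 higher, with a median log2FC of −0.15. Over all tested genes edgeR called 1.46%, 11.1% had such a p and 55.5% were lower. Eomes, the gene of Tbr2, had a log2FC of −0.28 (adjusted p = 1.00), with 96.2 to 183 CPM across IUGR samples and 67.6 to 329 CPM across shams. Neurod1 stood at −0.63 (adjusted p = 0.447), Mfap4 at −0.38 (adjusted p = 0.746) and Elavl4 at 0.31 (adjusted p = 0.364, all by edgeR's quasi-likelihood test).

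**Figure D5:**
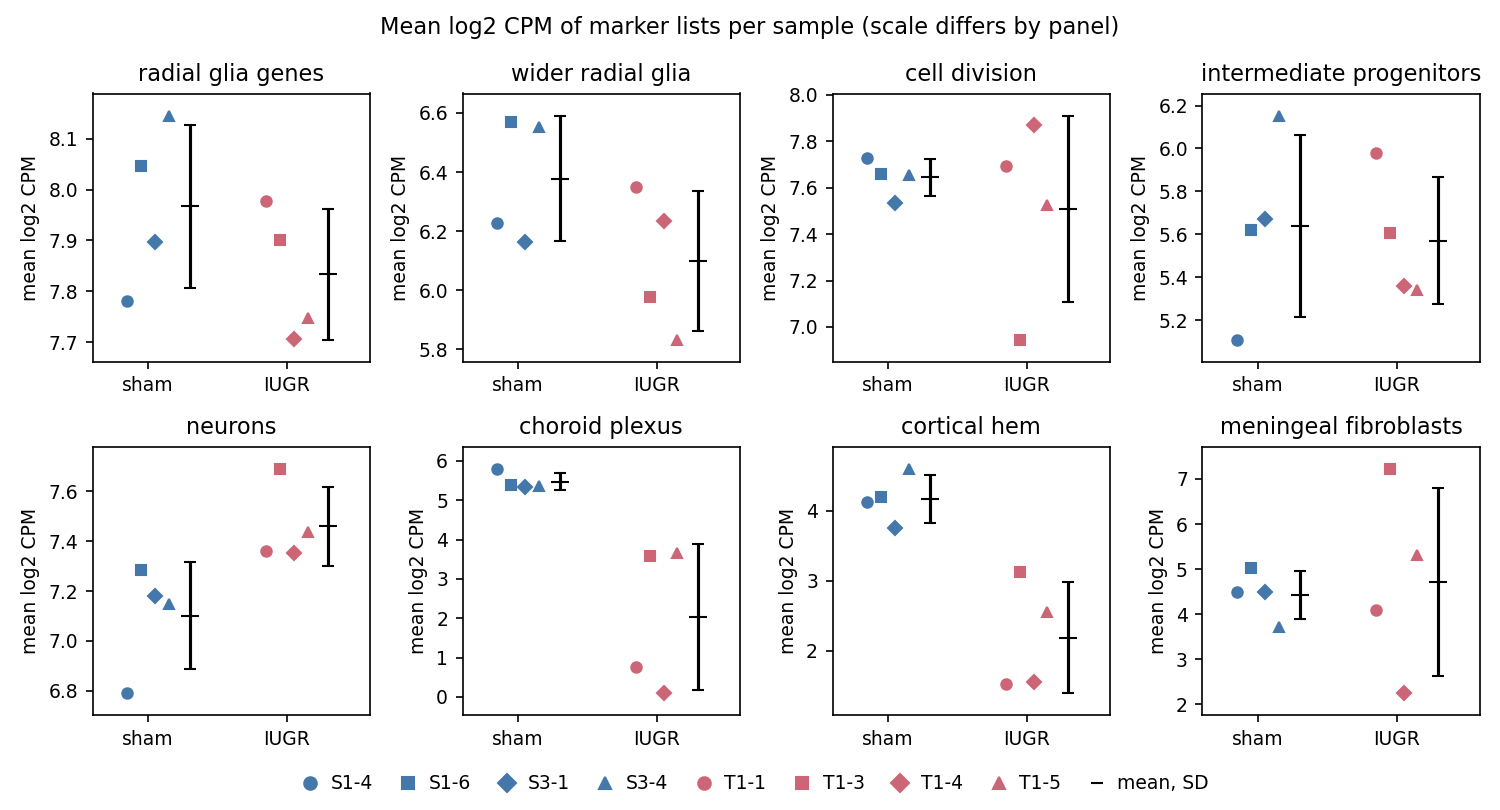
Mean log2 CPM of 8 marker lists in each sample, with bars for mean and SD (n = 4) and a scale that differs by panel and does not start at 0. Sham (blue) and IUGR (red) samples overlap for the radial glia, cell division and intermediate progenitor lists and lie apart for choroid plexus, cortical hem and neurons, where IUGR means are 7.35 to 7.69 and sham means 6.79 to 7.29.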

How the data were processed

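Total RNA depleted of ribosomal RNA was sequenced as single reads from a stranded kit. Per the submitters' processing notes, reads were aligned with Novoalign 2.8 to mm10, and the counting program, annotation and strand setting are not given in the sources used here. The authors deposited raw counts per gene without normalization, 1 column per sample, and every sample was used. Identifiers were matched to GENCODE M21 (16124 of 16397). Protein-coding genes whose mean count reached 10 but not 50000 were tested with edgeR 4.0.16 (TMM, quasi-likelihood test, Benjamini-Hochberg adjustment over 13707 genes) in R 4.3.3. Standard errors are those implied by the F statistic, and log2 CPM used a prior count of 2. Scripts were tested on simulated data. Alternatives were DESeq2 size factors, upper-quartile factors, DESeq2 1.42.0, limma-voom (limma 3.58.1), other count filters, every biotype, no fold criterion, omission of each sample, S1 or S3 shams alone, no T1-1 and T1-4, and, chosen after seeing the data, the number in the title as a block. Promoters came from RefSeq. The rule for the 10 genes uses no measured value, but the genes and lists were chosen with earlier results of these data known. Named are the 10 genes, the called genes of each list, up to 3 per list with the largest estimates and mean counts from 50, the genes most like Sox2 and like the mean of the 10, and others where said. Each sample was counted once. Within-group pairs of samples differed by more than sampling noise (chi-square per degree of freedom 27.2 to 71.8 over 12 pairs), which cannot show whether they came from separate dams.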

Additional observations from a re-analysis of the deposited data

Results flagged for a closer look

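For each of the 10 radial glia genes, the highest and the lowest sample of each group were compared with the spread of that group, which made 20 groups of 4 samples. In 2 of them a sample stood far from the others, and chance gives about 1 in 20. Sox2 was at 407 CPM in the sham sample S1-4, whereas the other sham samples lay between 236 and 260 CPM, and the gap to the nearest sample took 0.859 of the range of the group. Nes was at 552 CPM in the IUGR sample T1-5, whereas the other IUGR samples lay between 845 and 890 CPM, a gap of 0.867 of the range. Both gaps exceed Dixon's 95% critical value for 4 samples. Their cause was not tested.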

How the results depend on the processing

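None of the 10 genes was called under any alternative that was run, including DESeq2's Wald test and the adjusted p alone with edgeR. Their median log2 fold change lay between −0.23 and 0.011. The count of called genes, 200 of those tested, was 425 with DESeq2's Wald test, 328 with limma-voom, 95 with a mean count of at least 50, 0 with the S1 shams alone (edgeR, with 1053 genes at an unadjusted p under 0.05) and 2 with the S3 shams alone, 239 without T1-1 and T1-4, and 41 (without S1-4) to 298 (without T1-5) with each sample left out. The cause was not tested. Vim and Tnc kept their sign in all alternatives. With the S3 shams alone the sign turned for Fabp7 (−0.024), Pax6 (−0.12), Ptprz1 (0.20) and Sox2 (0.032), with the S1 shams alone for Hopx (0.32) and Nes (0.030), and without T1-1 and T1-4 for Hopx (0.15). Over the fits without 1 sample the estimates spanned −0.14 to 0.19 for Fabp7, −0.27 to 0.22 for Hopx, −0.17 to 0.036 for Nes, −0.023 to 0.32 for Pax6, −0.14 to 0.12 for Ptprz1, −0.36 to 0.015 for Sox2, 0.026 to 0.23 for Slc1a3 and −0.46 to 0.026 for Sox9, and −0.80 to −0.61 for Tnc (adjusted p 0.0695 to 0.225, edgeR).

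The numbers that end the sample titles recur across groups (1 in T1-1 and S3-1, 4 in T1-4, S1-4 and S3-4), but the labels do not say that they pair samples. Deviations from the group means correlated across genes at −0.11 for T1-1 with S3-1, −0.085 for T1-4 with S1-4 and 0.085 for T1-4 with S3-4, so they were not treated as pairs. A fit with this number as a replicate block, chosen after seeing the data and resting on those 5 samples, called 479 genes and 0 of the 10. There the sign turned for Fabp7 (−0.42), Nes (0.054), Ptprz1 (0.20), Slc1a3 (−0.0071), Sox2 (0.029) and Sox9 (0.11), Tnc was at −0.78 (adjusted p = 0.136, edgeR), Cntn1 was called and Veph1 was not.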

Other observations

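Estimates of neuron markers were mostly higher in IUGR hippocampi, although none of the list was called by edgeR's quasi-likelihood test. In that fit 7 of the 15 had an unadjusted p under 0.05, against 11.1% of all tested genes. DESeq2's Wald test and limma-voom each called Syt1. Of 15 genes, 13 had a higher and 2 a lower estimate (Neurod6, and Prox1 at −0.56 with an unadjusted p of 0.0338, one of the 7), and the median log2 fold change (log2FC) was 0.25. Syt1, a synaptic vesicle protein, averaged 119 ± 32.3 CPM under IUGR, against 56.3 ± 17.0 CPM in shams (n = 4 each, SD; log2FC 1.08, SE 0.25, adjusted p = 0.0629, edgeR's quasi-likelihood test). Gap43 of growing axons (0.73, adjusted p = 0.145) and the microtubule protein gene Mapt (0.70, adjusted p = 0.103) followed in the same fit. In 3 of the 15, Syt1, Mapt and Map2, all IUGR values lay above all sham values, against 2.08% of tested genes.

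Other cell types were measured beside them, and no gene of their lists was called by edgeR, DESeq2 or limma-voom. An unadjusted p under 0.05 in edgeR was found for 3 genes of endothelium and pericytes, 2 of oligodendrocyte precursors and 0 of the other lists. Across all tested genes edgeR called 1.46%, 11.1% had such a p and 44.5% had a higher estimate. Endothelium and pericyte genes had a median log2FC of 0.40, and 10 of 11 were on the higher side, Cdh5 with the largest estimate (0.77, adjusted p = 0.491, edgeR). All 5 markers of oligodendrocyte precursors had a higher estimate with a median of 0.39, with Sox10 at 2.24 (adjusted p = 0.346, mean count 32.6) and Olig1 at 1.22 (adjusted p = 0.203, edgeR). Sox10 was at 11.1 CPM in T1-3, the library with the highest meningeal markers, and at 0.674 to 1.90 CPM in the other IUGR samples, against 0.392 to 1.13 CPM in shams. All 10 microglial markers had a higher estimate with a median of 0.23, but on the log2 CPM scale the list averaged 3.71 in T1-3, 2.97 in T1-5, and 2.36 and 2.40 in T1-1 and T1-4, below the shams at 2.47 to 2.96. Estimates were higher for 9 of 10 markers of subpallial cells with a median of 0.15, and all 8 of red blood cells with a median of 0.43. All 10 meningeal fibroblast markers had a higher estimate with a median of 1.20, and T1-3 held by far the highest mean level of that list, 7.22 on the log2 CPM scale.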
